A study of Mus musculus with 6 samples.

Results

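The genes examined here were 10 EMT-activating transcription factors, chosen by name and not by their values: Zeb1, Zeb2, Snai1, Snai2, Snai3, Twist1, Twist2, Tcf4, Foxc2 and Prrx1. They were 10 of the 24214 RefSeq features counted in each sample. The samples came from 393P, an epithelial murine lung adenocarcinoma (LUAD) cell line that the labels describe as KP lung cancer cells of the strain C57BL/6. The cells had been transfected with ZEB1 (393P_ZEB1) or with the empty vector (393P_vector), and both transfectants were grown in RPMI-1640 with serum. Stable transfectants in the study were selected with a drug, so both groups had passed through transfection and selection. There were 3 samples of each, and the comparison asked how the other EMT-activating factors stood in cells in which 1 of them was raised ectopically. The sources used here do not say whether the 3 samples were separate cultures, whether the transfectants were clones or pools, or from which species the ZEB1 cDNA came. P-values therefore measure only the spread between these samples.

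The epithelial-to-mesenchymal transition (EMT) is a switch in which epithelial cells lose their junctions and apical-basal polarity and become motile. The ZEB proteins are zinc finger and homeodomain factors and the SNAIL proteins are zinc finger factors, and both families repress epithelial genes such as that for E-cadherin by binding E-box sequences. TWIST proteins and TCF4 are basic helix-loop-helix factors, FOXC2 is a forkhead factor and PRRX1 is a homeodomain factor. ZEB factors and the miR-200 microRNAs repress each other, a loop known for holding cells in an epithelial or in a mesenchymal state.

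The microRNAs and target sites of this loop are shown because they set Zeb1 and Zeb2 apart from the other factors in sequence. The mature miR-200 microRNAs fall into 2 groups by their seed, bases 2 to 8, which is in capitals (RefSeq, build GRCm38.p6). The first 3 below share 1 seed and the last 2 share the other.
mmu-miR-200b-3p: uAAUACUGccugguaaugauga
mmu-miR-200c-3p: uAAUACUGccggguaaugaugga
mmu-miR-429-3p: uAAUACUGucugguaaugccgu
mmu-miR-200a-3p: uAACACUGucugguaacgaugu
mmu-miR-141-3p: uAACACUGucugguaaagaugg
The complements of these seeds, CAGTATT and CAGTGTT, were searched on the sense strand of the 3′ UTR of 1 GENCODE M21 transcript per gene. The Zeb2 3′ UTR, 1450 bases long in this transcript, held 8 matches on the minus strand of chromosome 2 (GRCm38), of which 4 are shown with the match in capitals. In 3 of these 4 the capitals include the A that follows the match in an 8mer, the longer form of site.
Zeb2 chr2:44988101-44988123: cagtgcatCAGTATTAcgattcc
Zeb2 chr2:44987739-44987761: acccgtgtCAGTATTAgacgact
Zeb2 chr2:44988350-44988372: attttgtaCAGTGTTAaggccta
Zeb2 chr2:44987818-44987840: tccttgtaCAGTGTTcagagggt
Of the 8 matches in Zeb2, 5 were to the seed of miR-200b and 3 to that of miR-200a, and 6 of the 8 were 8mers. Zeb1 held 9 matches, 5 and 4 to the same seeds in this order, of which 3 were 8mers. Among the 11909 tested genes with a 3′ UTR, 2 had at least as many as Zeb1, Zeb1 included. At least as many as Zeb2 were found in 7, Zeb1 and Zeb2 included. A match of either kind was present in 28.3% of these genes. Tcf4 had 3 matches in a 3′ UTR of 6007 bases, Snai2 had 2, and Snai1 and Foxc2 had 1 each. The 2 matches of Tcf4 to the seed of miR-200a lie past the end of the Tcf4 feature that was counted. No match was present in Snai3, Twist1, Twist2 or Prrx1. A match is a run of letters and does not show that a microRNA acts there.

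Total counts ranged from 57844355 to 79158012 in 393P_vector and from 54442450 to 61251074 in 393P_ZEB1. The floor for detection was set at 3 counts, which is 0.0379 to 0.0551 CPM depending on the sample, here taken from total counts without TMM. Every other CPM is the count scaled to a common TMM-normalized library size. The sample 393P_vector replicate 3 stood apart, with 8.71% and 9.6% of tested genes differing at least 2-fold from replicates 1 and 2 of its group, against 2.41% between those 2 and at most 3.43% between 393P_ZEB1 samples. The 2 transfectants also differed in the summed level of 4 Y-linked genes, which was 99.6 to 129 CPM in 393P_vector and 0.491 to 0.71 CPM in 393P_ZEB1. The keratins and other epithelial markers summed to 4370 to 4997 CPM in 393P_vector and 2745 to 3042 CPM in 393P_ZEB1, whereas the lung markers Nkx2-1, Sftpc, Sftpb and Napsa had group means between 0.0099 and 0.0476 CPM. Markers of other cell types were low in both groups. The 7 fibroblast markers summed to 2.43 to 3.27 CPM in 393P_vector and 1.39 to 1.7 CPM in 393P_ZEB1, with Lum at no more than 3 counts in any sample. The 6 immune markers summed to 2.09 to 4.39 and 1.46 to 1.72 CPM, and the 5 endothelial markers to 2.32 to 2.46 and 0.63 to 0.901 CPM. None of these 3 sums was higher in 393P_ZEB1.

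Of the 10 factors, 9 had enough counts to be tested, and Foxc2 did not. In 393P_ZEB1, 6 were higher (Zeb1, Zeb2, Twist1, Twist2, Tcf4 and Prrx1), Snai3 was lower, and Snai1 and Snai2 did not pass the test. Calls used edgeR's quasi-likelihood test at a Benjamini-Hochberg adjusted p under 0.05 over 13892 genes, of which 2539 (18.3%) were higher, 2679 (19.3%) lower and 5218 (37.6%) called in either direction. The groups did not overlap for 7 of the 9 factors, and for 52.8% of all tested genes. The median log2 fold change of the 9 was 1.26, against -0.02 over all tested genes. That median is the value of Zeb1, the factor introduced by transfection. Zeb1 is also among the 6 higher and the 7 without overlap, so these figures do not describe the other factors alone. Of the 6 higher factors, 5 rose at least 2-fold, the exception being Zeb2.

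**Figure D1:**
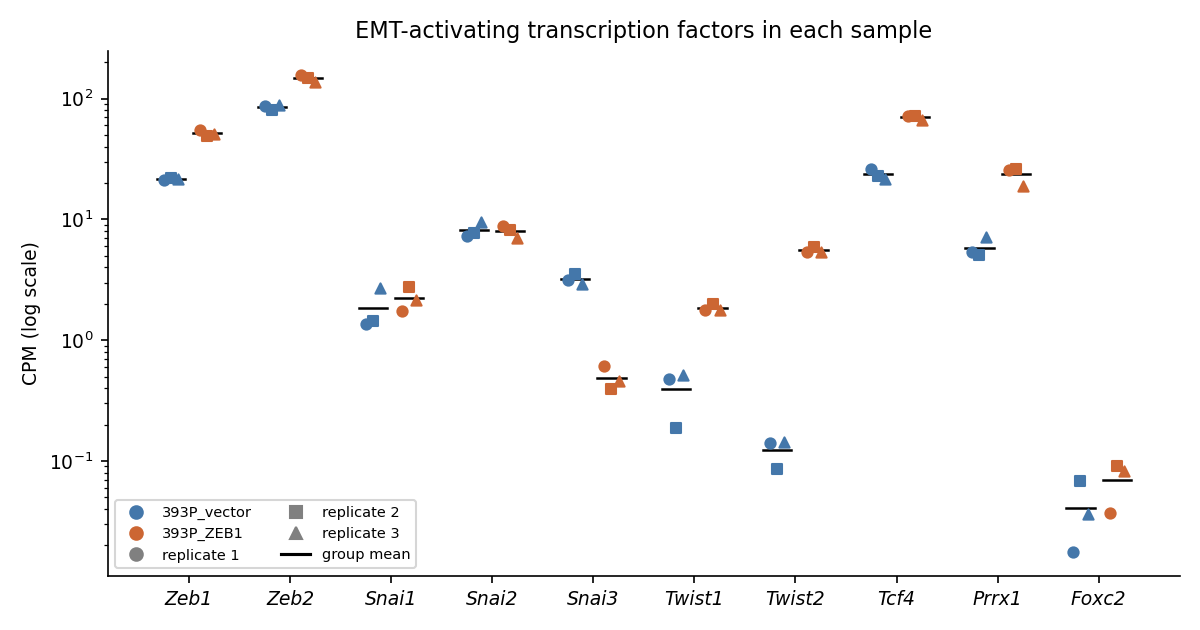
Level of each factor in each sample, in CPM on a log axis; blue is 393P_vector, orange is 393P_ZEB1, symbols mark the replicate number and lines the group means. The groups are separated for 7 factors, and the widest gap is that of Twist2, from a mean of 0.124 to 5.54 CPM; the groups overlap for Snai1, Snai2 and Foxc2.

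Zeb1, the factor introduced into these cells, was read first. It lies on the plus strand of chromosome 18 (5591860 to 5775468), with 5798 exon bases in 8 exons. Its level was 21.2, 22 and 21.4 CPM in 393P_vector replicates 1 to 3 and 54.9, 48.9 and 51.3 CPM in 393P_ZEB1 replicates 1 to 3. The 393P_vector samples lay within a narrow range, and every 393P_ZEB1 sample stood above them. Means were 21.5 ± 0.435 and 51.7 ± 3.01 CPM (SD, n = 3), with a log2 fold change of 1.26 (SE 0.10, edgeR adjusted p = 6.06e-05). The empty-vector cells held 1198 to 1779 Zeb1 reads per sample, so Zeb1 was also transcribed in cells without the ectopic factor. Reads from the introduced cDNA and from the chromosomal gene cannot be told apart in a count per gene. In 393P_ZEB1 all 8 exons had more than 10 reads in every sample, as they had in 2 of the 3 393P_vector samples.

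Zeb2, the paralog of Zeb1, has the sites shown above and lies on the minus strand of chromosome 2 (44983634 to 45113279), with 9103 exon bases. Its level was 86.6, 80.6 and 89.1 CPM in 393P_vector and 158, 149 and 138 CPM in 393P_ZEB1. The groups did not overlap, and the lowest 393P_ZEB1 sample exceeded the highest 393P_vector sample by more than the whole range of either group. Zeb2 rose from 85.5 ± 4.36 to 148 ± 9.76 CPM, a log2 fold change of 0.80 (SE 0.10, edgeR adjusted p = 0.000603). Zeb2 was not part of the transfection. A microRNA gene and an uncharacterized gene overlap its locus. Each of them had from 6 to 66 counts in every sample, against 4744 to 8450 for Zeb2. The change was smaller than that of Zeb1. Per kb of exon, Zeb2 stood at 2.61, 2.33 and 2.65 times Zeb1 in 393P_vector and at 1.83, 1.94 and 1.72 times in 393P_ZEB1, so Zeb2 was the more abundant ZEB transcript in every sample. The log2 of this ratio differed by -0.467 between groups (exact permutation test, two-sided, p = 0.1, the smallest p that 3 samples against 3 allow).

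The 3 SNAIL family genes moved apart, with Snai3 lower and the better studied Snai1 and Snai2 not called. Snai3 lies on the minus strand of chromosome 8 (122454206 to 122460692), with 1586 exon bases in 3 exons. Its level was 3.13, 3.5 and 2.94 CPM in 393P_vector and 0.617, 0.396 and 0.459 CPM in 393P_ZEB1. It was the only 1 of the 10 factors to fall, and its groups were far apart, with 177 to 244 reads per 393P_vector sample and 22 to 33 per 393P_ZEB1 sample. It fell by 2.70 on the log2 scale (SE 0.23, edgeR adjusted p = 7e-05), and its mean was 6.5 times as high in 393P_vector. Among all tested genes, 4.62% were called lower with a log2 fold change of -2 or below.

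Snai1, a direct repressor of the E-cadherin gene, lies on the plus strand of chromosome 2 (167538227 to 167542811). Its level was 1.36, 1.43 and 2.7 CPM in 393P_vector and 1.74, 2.77 and 2.16 CPM in 393P_ZEB1. The groups overlapped through 393P_vector replicate 3 alone, whose value was near the highest of the 6. The log2 fold change was 0.27 (95% interval -0.35 to 0.90, edgeR adjusted p = 0.534). Without that replicate it was 0.67 (adjusted p = 0.0335), and with limma voom sample weights, which gave that replicate a weight of 0.111 against 0.726 to 3.02 for the others, it was 0.72 (adjusted p = 0.00923). The call for Snai1 therefore rests on 1 sample. Snai1 was also the only factor with an E-box of the ZEB and SNAIL type, CACCTG or its reverse complement CAGGTG, among the 5 whose promoters could be searched (Snai1, Zeb2, Twist1, Twist2 and Prrx1, 300 bases from 250 before to 50 after the start site, both strands, RefSeq, build GRCm38.p6). It is shown in capitals, at position -126 from the start site.
Snai1 chr2:167538057-167538086: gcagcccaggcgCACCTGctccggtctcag
The same motif was present in 20.2% of 32851 promoters of this length, and binding was not measured here.

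Snai2 encodes SLUG and lies on the plus strand of chromosome 16 (14705859 to 14709382). Its level was 7.24, 7.67 and 9.55 CPM in 393P_vector and 8.9, 8.12 and 7.03 CPM in 393P_ZEB1. The 2 groups covered nearly the same range. The log2 fold change was -0.03 (95% interval -0.35 to 0.30, edgeR adjusted p = 0.919) and 0.10 (adjusted p = 0.563) without 393P_vector replicate 3. A change of Snai2 as large as the 0.80 of Zeb2 lay outside the interval.

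Both TWIST genes rose from low levels. Twist2 lies on the plus strand of chromosome 1 (91801477 to 91848027), with 1310 exon bases in 2 exons. It had 8, 5 and 12 reads in 393P_vector and 288, 327 and 327 reads in 393P_ZEB1, or 0.141, 0.085 and 0.144 CPM against 5.38, 5.89 and 5.36 CPM. In 393P_vector these values were only just above the level of 3 counts, and the 393P_ZEB1 samples were close to each other. The log2 fold change was 5.45 (SE 0.24, edgeR adjusted p = 2.79e-06), the largest of the 9 factors, and the mean rose 44.8-fold. Only 2 of the 808 tested genes of chromosome 1, Twist2 included, had a log2 fold change as high.

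Twist1 lies on the plus strand of chromosome 12 (33957671 to 33959831), with 1628 exon bases. It had 27, 11 and 43 reads in 393P_vector and 96, 110 and 108 in 393P_ZEB1, or 0.477, 0.187 and 0.518 CPM against 1.79, 1.98 and 1.77 CPM. The 393P_vector samples were scattered, and all lay well below the 393P_ZEB1 samples. Twist1 rose by a log2 fold change of 2.21 (SE 0.35, edgeR adjusted p = 0.00194), and the estimate ranged from 1.89 to 2.48 when each sample in turn was left out. In 393P_ZEB1 Twist2 was the more abundant TWIST transcript per kb in each sample, and in 393P_vector Twist1 was.

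Prrx1, a homeodomain factor of embryonic mesenchyme, lies on the minus strand of chromosome 1 (163245119 to 163313650), with 7443 exon bases. Its level was 5.41, 5.03 and 7.1 CPM in 393P_vector and 25.7, 26.2 and 18.9 CPM in 393P_ZEB1. The third 393P_ZEB1 sample was lower than the other two but remained above every 393P_vector sample. Prrx1 rose by a log2 fold change of 2.01 (SE 0.20, edgeR adjusted p = 0.00017), from a mean of 5.85 ± 1.1 to 23.6 ± 4.09 CPM. Over all tested genes, 3.39% were called higher with a log2 fold change of 2 or more, and Prrx1, Twist1 and Twist2 were among them.

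Foxc2 lies on the plus strand of chromosome 8 (121116171 to 121118894), in 1 exon of 2723 bases. It had 1, 4 and 3 reads in 393P_vector and 2, 5 and 5 in 393P_ZEB1. Both groups were at the edge of detection and overlapped (exact permutation test, two-sided, p = 0.2), so no fold change is given. A difference in Foxc2 was not detectable at this depth.

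Tcf4 encodes the E-protein also called E2-2, a dimerization partner of other basic helix-loop-helix factors. It lies on the plus strand of chromosome 18 (69344492 to 69687967), with 7660 exon bases in 22 exons. Its level was 26.1, 22.9 and 21.8 CPM in 393P_vector and 71.2, 71.5 and 66.6 CPM in 393P_ZEB1. The groups were separated by more than the range within either. Tcf4 rose by a log2 fold change of 1.56 (SE 0.11, edgeR adjusted p = 3.05e-05), from 23.6 ± 2.19 to 69.8 ± 2.74 CPM. All 22 exons had more than 10 reads in each 393P_ZEB1 sample, and 19 to 21 had in 393P_vector.

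**Figure D2:**
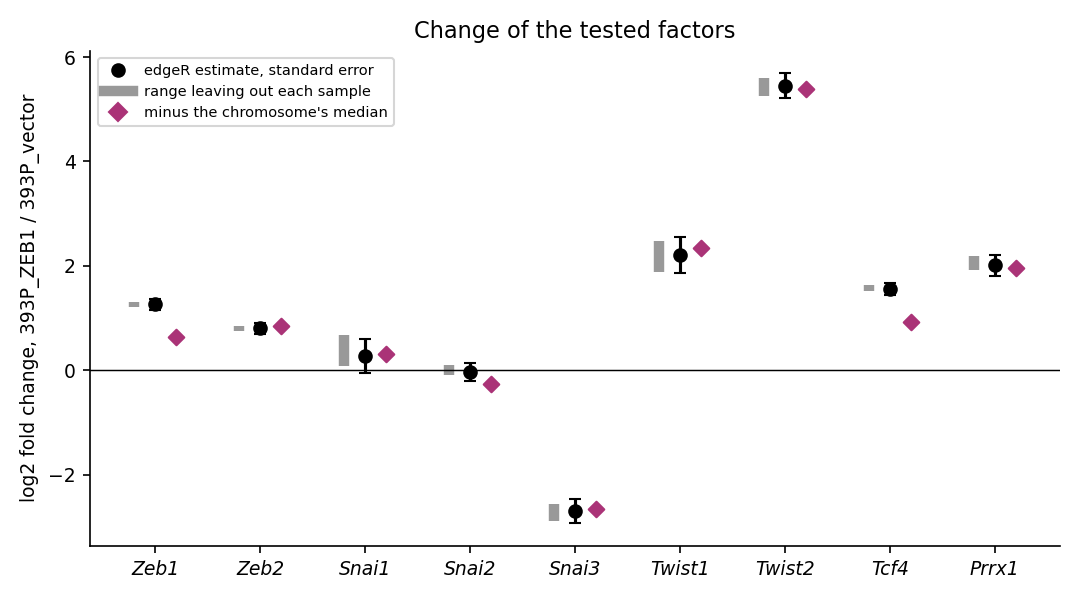
Log2 fold change of each tested factor, 393P_ZEB1 over 393P_vector; black points are edgeR estimates with standard errors, grey bars the range when each sample in turn is left out, and diamonds the estimate minus the median of the tested genes on the same chromosome. Twist2 stands highest at 5.45 and Snai3 lowest at -2.70, and the diamonds fall visibly below the estimates only for Zeb1, Snai2 and Tcf4.

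Zeb1 and Tcf4 share chromosome 18, and the genes of that chromosome were higher as a whole in 393P_ZEB1. Of its 396 tested genes, 255 (64.4%) were called higher and 39 (9.85%) lower, with a median log2 fold change of 0.64, whereas the medians of the other chromosomes that carry a tested factor lay between -0.13 and 0.25. Against the chromosome median, the log2 fold change of Zeb1 was 0.63 and that of Tcf4 0.93. On chromosome 18, 69 of 396 genes (17.4%) were as high as Zeb1 and 49 (12.4%) as high as Tcf4. Of the 10 tested genes nearest to Zeb1, 8 were called higher and 1 lower, with a median log2 fold change of 0.89, and of those nearest to Tcf4, 5 were higher and 1 lower, with a median of 0.47. The neighbours of the other factors had medians between -0.36 and 0.20. What part the shift of the chromosome had in the levels of Zeb1 and Tcf4 was not tested. Zeb2, Twist1, Twist2, Prrx1 and Snai3 lie on chromosomes with medians between -0.13 and 0.06, and their log2 fold changes against these medians were 0.84, 2.34, 5.38, 1.95 and -2.65.

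**Figure D3:**
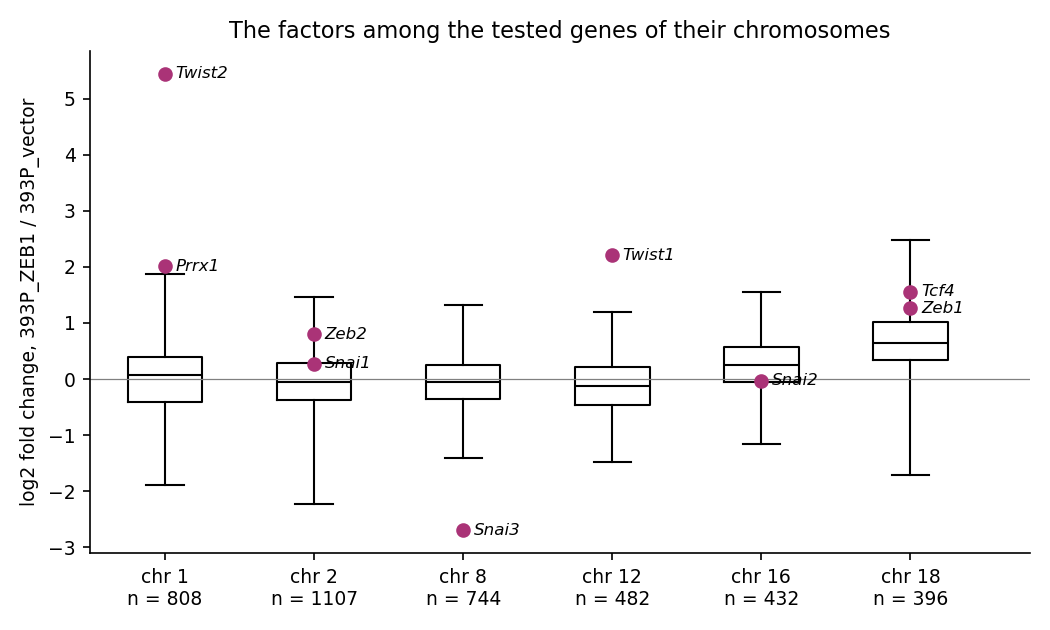
Log2 fold changes of the tested genes of each chromosome that carries a tested factor. Boxes show the quartiles, lines the medians, whiskers reach outer percentiles of the genes, and points are the factors. The box of chromosome 18 sits above 0, with a median of 0.64. Twist2, Twist1, Prrx1 and Snai3 lie beyond the whiskers of chromosomes with medians near 0, which places them in the tails and is not an outlier test. Of the tested genes on their chromosomes, 0.248%, 3.32% and 4.08% were as high as Twist2, Twist1 and Prrx1, these included. For Snai3 it was 97.6%.

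Levels of different genes can be compared only per kb of exon. In 393P_vector Zeb2 was highest at a mean of 9.39 CPM per kb, followed by Snai2 (4.06) and Zeb1 (3.71), whose ranges overlapped. Tcf4 (3.08) and Snai3 (2.01) came next, then Snai1 (1.15) and Prrx1 (0.785), which overlapped, and the order ended with Twist1 (0.242), Twist2 (0.0943) and Foxc2 (0.0149). In 393P_ZEB1 Zeb2 was again highest at 16.3 CPM per kb, and Tcf4 (9.11) and Zeb1 (8.91) overlapped below it. Twist2 had moved up to 4.23, level with Snai2 (3.99), and the range of Prrx1 (3.17) overlapped that of Snai2. Snai1 (1.41) and Twist1 (1.14) overlapped each other, with Snai3 (0.309) and Foxc2 (0.0256) last. The places that changed most were those of Snai3 and Twist2.

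Summed over the 7 ZEB, SNAIL and TWIST genes, the level was 20.7 ± 1.35 CPM per kb in 393P_vector and 36.3 ± 1.79 in 393P_ZEB1 (SD, n = 3), without overlap. Zeb2 held the largest share in every sample, with a mean of 45.5% and 44.9% (exact permutation test, two-sided, p = 0.8). The share of Zeb1 was 18% ± 1.31 and 24.6% ± 1.35, and that of Twist2 0.455% ± 0.111 and 11.7% ± 0.762. The share of Snai2 was 19.6% ± 1.7 in 393P_vector and 11% ± 0.754 in 393P_ZEB1, while its own level per kb was nearly equal in both groups. The share of Snai3 was 9.79% ± 1.42 and 0.85% ± 0.171. For these 4 shares and that of Twist1 the groups did not overlap and the exact permutation p was 0.1, the smallest possible, so the design could not bring any of them under 0.05. The share of Snai1 overlapped, at 5.51% ± 1.87 and 3.89% ± 0.954 (exact permutation p = 0.3).

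**Figure D4:**
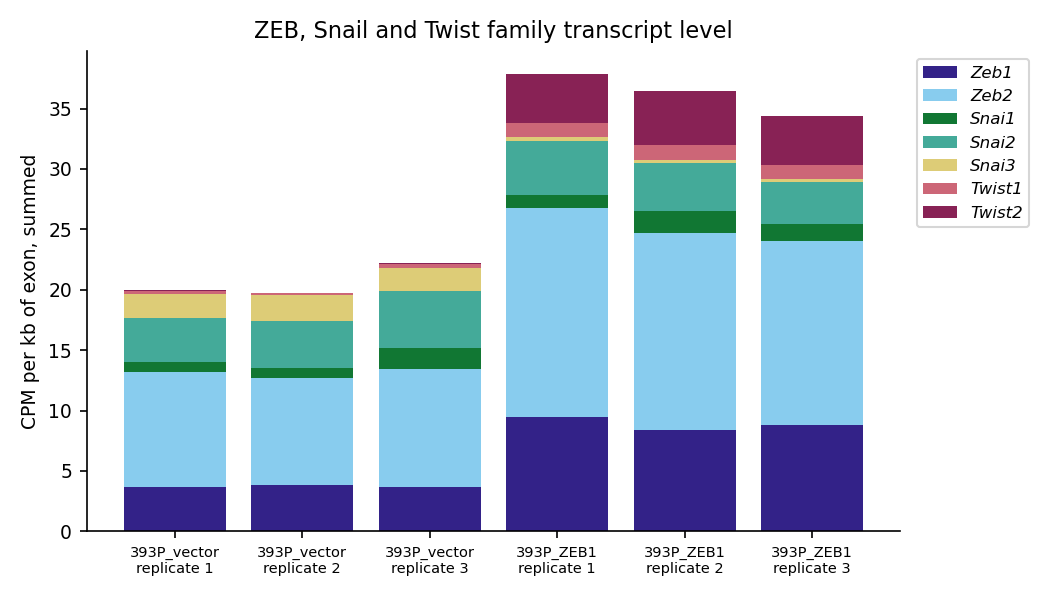
Summed transcript level of the 7 ZEB, SNAIL and TWIST genes in each sample, in CPM per kb of exon, with 1 colour per gene. The bars of 393P_vector end between 19.8 and 22.2 and those of 393P_ZEB1 between 34.4 and 37.9; Twist2 is visible only in 393P_ZEB1, and Snai3 shrinks to a thin band there.

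Among 13 other transcription factors linked to EMT, 10 were tested, 3 were higher and none lower, and their median log2 fold change was 0.25. Foxc1, the close relative of Foxc2, rose from 3.96 ± 0.31 to 5.94 ± 0.485 CPM (log2 fold change 0.58, edgeR adjusted p = 0.019). Ets1, named after its value was seen, rose by a log2 fold change of 0.47 (adjusted p = 0.00669). Without 393P_vector replicate 3, 5 of them were higher. The shares of all tested genes called were 18.3% higher and 19.3% lower.

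Of 7 transcription factors known for opposing EMT, 6 were tested and 4 were lower in 393P_ZEB1, with a median log2 fold change of -3.35. Ovol2, a zinc finger repressor of Zeb1, fell by 4.68 on the log2 scale, from 1.54 ± 0.492 to 0.0564 ± 0.0511 CPM (edgeR adjusted p = 0.000333). Its paralog Ovol1 fell by 4.66 (adjusted p = 4.71e-05), from 1.39 to 0.0521 CPM, a level near that of 3 counts. The others, named after their values were seen, were Grhl2, the grainyhead factor of epithelial cells, which fell by 3.84 (adjusted p = 1.03e-05), and Elf3, an epithelial ETS factor, which fell by 2.85 (adjusted p = 3.36e-05). Foxa1 and Foxa2 had log2 fold changes of -0.32 and 0.12 and did not pass the test. Without 393P_vector replicate 3, 1 factor of this list was higher.

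The partners of the TWIST and TCF4 proteins are the other E-proteins and the ID inhibitors, which bind E-proteins and keep them from DNA. Of 6 genes, 2 were higher and none lower, with a median log2 fold change of 0.32. These were Id4 (log2 fold change 1.21, edgeR adjusted p = 0.0143) and Id2 (0.74, adjusted p = 0.0341). Their number was between 0 and 3 when single samples were left out, 3 without 393P_vector replicate 3 and 0 without 393P_ZEB1 replicate 3. Of 15 corepressors and chromatin enzymes that work with ZEB, SNAIL or TWIST factors, 1 was higher, the deacetylase Hdac1 (0.68, adjusted p = 0.0376), and 1 lower, Jub, which encodes the LIM protein Ajuba, a SNAIL corepressor (-0.86, adjusted p = 0.000293). Their median was -0.01. Hdac1 was not called when any single 393P_ZEB1 sample was left out, and without 393P_vector replicate 3 there were 5 lower corepressors.

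Kinases, ubiquitin ligases and deubiquitinases that set the stability of these factors numbered 15, and of the 14 tested, 2 were higher and 2 lower, with a median of -0.14. The kinase genes Pak1 and Gsk3b, the latter known for marking SNAI1 for degradation, had log2 fold changes of 0.70 (edgeR adjusted p = 0.00314) and 0.51 (adjusted p = 0.0229). Their number was 1 when any sample other than 393P_vector replicate 3 was left out, and 3 without that replicate. Fbxl14, a ubiquitin ligase subunit for SNAIL and TWIST proteins, fell by 0.55 (adjusted p = 0.00399), and Prkd1, a kinase that phosphorylates SNAI1, fell by 5.07 (adjusted p = 0.000701), from 4.17 ± 3.02 to 0.122 ± 0.0379 CPM. Protein levels were not measured in these samples.

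The epithelial genes that the factors are known to repress were lower throughout. Of 18, all 18 were tested and lower in 393P_ZEB1, with a median log2 fold change of -5.44. Cldn4, a tight junction claudin, fell by 8.40 on the log2 scale, from 270 ± 15.8 to 0.798 ± 0.292 CPM (edgeR adjusted p = 7.13e-07). Rab25, an epithelial recycling GTPase, fell by 8.01 (adjusted p = 2.68e-06). Cdh1, the gene of E-cadherin, named here because it is the best known target, fell from 162 ± 61.1 to 9.51 ± 0.718 CPM (log2 fold change -4.09, adjusted p = 2.28e-05). Of 17 mesenchymal genes, 15 were tested, 6 were higher and 4 lower, with a median of 0.10. Col3a1, a fibrillar collagen, rose from 0.119 to 1.6 CPM (log2 fold change 3.75, adjusted p = 9.56e-05) and S100a4 by 2.45 (adjusted p = 2.78e-05), whereas Tagln and Acta2, both of the smooth muscle type cytoskeleton, fell by 6.51 and 2.21 (adjusted p = 2.03e-05 and 0.000102). Itga5, an integrin subunit named after its value was seen, fell by 0.59 (adjusted p = 0.0164).

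The hairpins of the miR-200 family were read in 393P_vector and almost not at all in 393P_ZEB1. Mir200c, whose mature sequence is shown above, had 78, 70 and 125 counts in 393P_vector and 1, 0 and 0 in 393P_ZEB1, a ratio of 234 with a 95% counting interval of 41.6 to 9273. Mir200b had 29, 26 and 54 counts against 0 in every 393P_ZEB1 sample, at least 31.1-fold lower when the latter are set to 3 counts over the group. Mir429 had 9, 8 and 13 counts and Mir200a 8, 5 and 15 against 0, at least 8.57-fold and 8-fold lower. Only Mir200b and Mir200c had enough counts for the test, and both were lower (edgeR adjusted p = 0.000535 and 3.19e-05). Mir141, the neighbour of Mir200c, had a single count in all. Mir34a, whose microRNA is known to target Snai1, had 16, 3 and 11 counts against 0, 1 and 0, a ratio of 25.7 (95% counting interval 4.27 to 1049), and Mir205, another microRNA known to target the ZEB genes, had 2 counts in all. These reads fell on hairpins of 67 to 101 bases in libraries of total RNA and do not measure the mature microRNAs. The intervals cover counting error only.

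**Figure D5:**
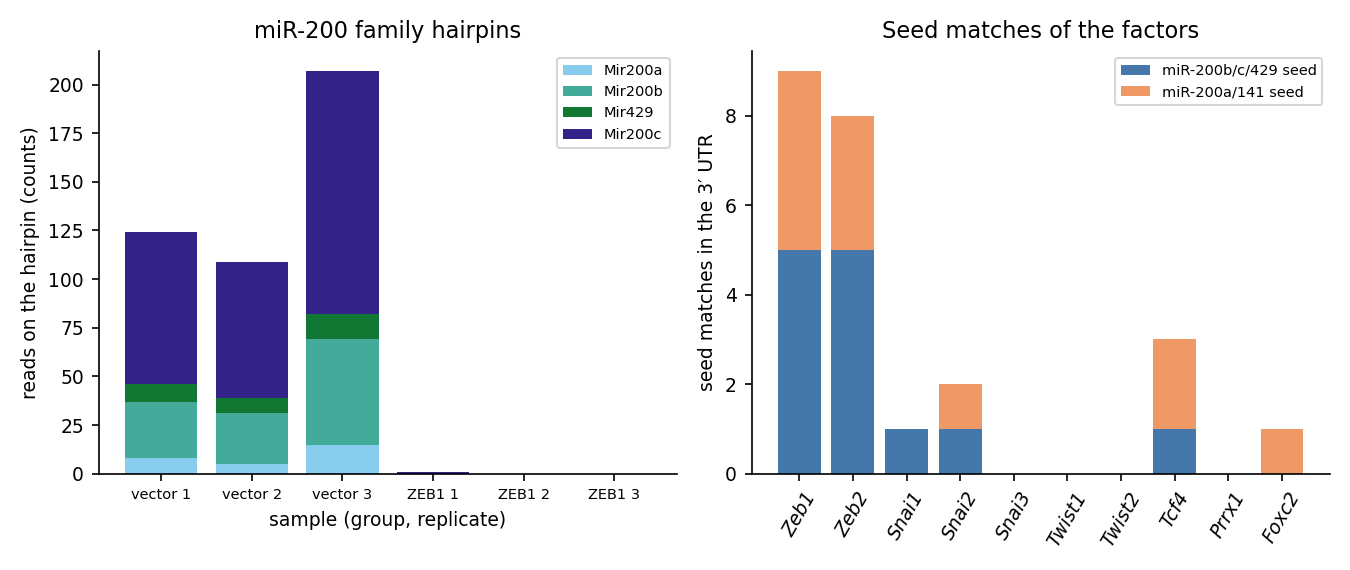
Left, reads on the hairpins of 4 miR-200 genes in each sample, in counts; right, number of matches to the 2 miR-200 seeds in the 3′ UTR of each factor. The hairpin reads are confined to the 393P_vector samples except for 1 Mir200c read, and Zeb1 and Zeb2 stand out with 9 and 8 matches, while Twist1, Twist2, Prrx1 and Snai3 have none.

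The factors with many seed matches were not those with the largest changes. Zeb1 and Zeb2, with 9 and 8 matches, had log2 fold changes of 1.26 and 0.80, whereas Twist2, Prrx1 and Twist1, without a match, had 5.45, 2.01 and 2.21. Snai3, the factor that fell, had none either. For Zeb1, reads from the introduced cDNA and the chromosomal gene cannot be told apart, and the genes of its chromosome were higher as a whole. Whether the loss of hairpin reads had a part in any of these changes was not tested.

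The genes whose pattern over the 6 samples was most like that of Zeb1 were Megf10, Timp3 and Birc3, by the root mean square distance of mean-centred log2(CPM + 0.5), which was 0.0461, 0.0476 and 0.0556. Megf10, an engulfment receptor gene also on chromosome 18, stood at 4.94 and 12.4 CPM, and Timp3, a metalloproteinase inhibitor gene, at 138 and 337 CPM. Birc3, an inhibitor of apoptosis gene, stood at 4.51 and 11.7 CPM. Of the other factors, Tcf4 was the closest at 0.183, followed by Twist1 at 0.228 and Zeb2 at 0.238, and Tcf4 ranked 295 among the tested genes. Twist1 stood at only 0.394 and 1.85 CPM, where the added 0.5 makes its change smaller in this measure.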

How the data were processed

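Total RNA of 393P_vector and 393P_ZEB1 cells, 3 samples of each, had been sequenced from SOLiD libraries. The authors deposited, per sample, the read count of each RefSeq feature, its exon length and its RPKM. The aligner, counting program, strand setting and genome build are not given in the sources used here. Of 20727 features matched by symbol to RefSeq GRCm38.p6, 98.0% had a start or end within 1000 bases, so coordinates are given as GRCm38. The deposited RPKM served in alternatives for the Zeb2 to Zeb1 ratio and for the shares of the ZEB, SNAIL and TWIST genes.

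Samples were grouped by their titles, and none was left out. Counts were tested in R 4.3.3 with edgeR 4.0.16 (filterByExpr with a minimum count of 10, TMM, robust quasi-likelihood fit, Benjamini-Hochberg adjustment over 13892 genes, threshold 0.05, common biological coefficient of variation 0.1843). Ratios, shares and Foxc2 were compared by exact permutation tests of 3 samples against 3 in SciPy 1.17.1. Total counts were 54442450 to 79158012 per sample, and counting intervals were taken at 95%. The fit was tested on simulated counts with known changes. The 10 factors, the gene lists and the tests were chosen with earlier results of these data known. Named genes were the 10 factors, the 2 largest called changes in each direction per list and the 3 genes nearest to Zeb1, and others are stated where named. Some genes counted in the lists are not reported here by name. For seed matches, the GENCODE M21 transcript matched to the deposited RefSeq accession was used where there was one, otherwise that with the longest coding sequence. No pair of the 10 factors (45 pairs) shared an identical window of 35 or 50 bases.

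Alternatives were a Wald test in DESeq2 1.42.0, DESeq2 size factors, no count filter, a minimum of 10 counts in all samples, a replicate block, leaving out each sample, limma 3.58.1 voom with sample weights, a threshold of 0.01, a test against a fold change of 1.5, subtraction of the chromosome median and a fit without robust estimation.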

Additional observations from a re-analysis of the deposited data

How the results depend on the processing

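The counts of factors called, 6 higher and 1 lower, stayed within 1.5 times under every alternative run, and the direction of the 7 called factors did not change. For all genes, 2539 were higher and 2679 lower. With voom sample weights these were 3977 and 4094, against a fold change of 1.5 they were 1081 and 1118, and at an adjusted p under 0.01 they were 1584 and 1545. When single samples were left out they ranged from 1861 to 3700 higher, and from 1784 lower without 393P_ZEB1 replicate 3 to 3776 lower without 393P_vector replicate 3. In the same way the other EMT-linked factors called higher ranged from 2 to 5, the EMT-opposing factors called higher from 0 to 1, the partners called higher from 0 to 3, the corepressors from 0 to 2 higher and 1 to 5 lower, and the stability genes called higher from 1 to 3. Snai1 passed the test with voom weights (0.72) and without 393P_vector replicate 3 (0.67). Snai2 changed sign, though not called, with voom weights (0.07), without 393P_ZEB1 replicate 3 (0.07) and without 393P_vector replicate 3 (0.10), with a lowest value of -0.10 when single samples were left out, and was -0.27 against its chromosome median. The difference in the share of Zeb2, -0.598 percentage points, was between -1.31 and 0.444 when samples were left out, the sign turning without 393P_vector replicate 1. Zeb2 lost its call only in the test against a fold change of 1.5 (adjusted p = 0.0576). Twist2 could not be fitted with at least 10 counts in every sample. The causes of these changes were not tested.

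Replicates carry the numbers 1 to 3 in each group. Deviations of same-numbered samples correlated at 0.279, -0.205 and -0.0377, against -0.182 to 0.222 for different numbers, and 2 of 6 samples correlated best with their own number, so the numbers were not taken as pairs. With the replicate block, 2180 genes were higher and 2256 lower, 2 corepressors were higher, and the 7 factors called without it were called with it.

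The main limits are the 3 samples per group, 1 of which stands apart in 393P_vector, the chromosome-wide shift that Zeb1 and Tcf4 share, and the depth, at which Foxc2 and Twist2 in 393P_vector stood near the level of 3 counts. The 2 transfectants also differ in genes outside any EMT list, the Y-linked genes among them, and effects of ZEB1 and other differences between the 2 lines cannot be told apart in 1 pair of transfectants.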
